A study of Mus musculus with 15 samples.

Results

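Interferon-stimulated genes are the genes that cells switch on when an interferon binds its receptor, and 37 of them were followed here in the left ventricle of male mice with and without chronic kidney disease. The 37 were taken by name as a module of widely used interferon-stimulated genes, out of 55487 annotated genes. They were chosen with earlier results of these data known. All 37 had enough reads to be tested, out of 20718 genes tested. The study set 7 mice with kidney disease against 8 wild-type littermates, and asks by its design what long-standing kidney disease does to the heart muscle. The kidney disease mice carried a defect of Col4a5, a chain of the collagen IV network of the kidney filter, which the labels call a knockdown while the series design speaks of a knockout. The wild-type mice carried no such defect and were housed with their mutant littermates. Both groups were male, 225 days old and fed normal chow, and the labels put the kidney disease at a late stage. The tissue was the midline free wall of the left ventricle, taken under isoflurane by the sample titles, while the protocol text also names ketamine and xylazine. It is a mixture of muscle, vessel, connective tissue and immune cells, so fewer cells of a type and less RNA per cell cannot be told apart. Total RNA depleted of ribosomal RNA was sequenced, 1 library for each animal.

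Type I interferons act through a receptor made of the Ifnar1 and Ifnar2 chains, whose kinases phosphorylate signal transducers such as Stat2. Stat2 joins Irf9 in a complex that binds a short DNA element, the interferon-stimulated response element, near the start of many interferon-stimulated genes. The products sense foreign nucleic acids, block or degrade viral RNA, tag proteins with the ubiquitin-like Isg15 or raise the supply of the pathway's own factors. In a heart without infection many of them are present at a low resting level, in muscle, endothelial and resident immune cells alike.

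The DNA around the start of part of these genes shows the element. The 8 sequences below are those of the members with the smallest unadjusted p-values that hold it before their start. RefSeq promoter windows, from 250 bases before to 50 bases after the start on build GRCm38.p6, were found for 28 of the 37 members. The letters GAAANNGAAA, or TTTCNNTTTC on the other strand, were present in 16 of the 28, which is 57.1%, against 1079 of the 27025 genes with a window, which is 3.99%. The other 12 of the 28 had no match, and the 16 include members such as Ifitm3, whose matches lie only after the start. At least 2 matches, summed over all windows of a gene, were found in 9 members. Of these, Trim30a and Gbp3 have 2 windows each, so a site may be counted from both. Overlapping matches run together in the capitals below, which mark every match within the 80 bases shown, 5′ to 3′ on the gene's own strand.
Oas1a: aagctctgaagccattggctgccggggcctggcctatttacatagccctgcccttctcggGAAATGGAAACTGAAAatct
Irgm1: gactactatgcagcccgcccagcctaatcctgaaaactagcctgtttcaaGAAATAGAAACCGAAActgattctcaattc
Isg15: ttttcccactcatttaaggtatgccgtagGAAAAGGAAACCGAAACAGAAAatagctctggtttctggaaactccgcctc
Ifit3: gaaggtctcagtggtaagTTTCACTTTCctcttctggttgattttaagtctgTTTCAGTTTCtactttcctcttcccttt
Bst2: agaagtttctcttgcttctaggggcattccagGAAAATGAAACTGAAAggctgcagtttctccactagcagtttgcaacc
Rsad2: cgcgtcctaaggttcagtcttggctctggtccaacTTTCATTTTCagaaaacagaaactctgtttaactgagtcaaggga
Gbp2: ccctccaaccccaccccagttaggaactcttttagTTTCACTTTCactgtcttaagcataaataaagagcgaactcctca
Trim30a: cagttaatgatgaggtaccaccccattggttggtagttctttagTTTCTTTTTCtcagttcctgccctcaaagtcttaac
The Oas1a stretch is chr5:120907526-120907605, that of Irgm1 chr11:48871421-48871500, that of Isg15 chr4:156200846-156200925 and that of Bst2 chr8:71537555-71537634. The Ifit3 stretch is chr19:34583355-34583434, that of Rsad2 chr12:26456528-26456607, that of Gbp2 chr3:142620569-142620648 and that of Trim30a chr7:104465194-104465273. Ifit3 and Gbp2 lie on the plus strand and the other 6 on the minus strand. Isg15 holds 3 overlapping matches, Oas1a, Irgm1 and Bst2 hold 2 overlapping matches each, and Ifit3 holds 2 separate ones. A second motif, TTCNNNGAA, the gamma-activated site, which reads the same on both strands, was present in 8 of the 28 members (28.6%) and in 9.55% of all genes with a window. These matches are letters in a window and were not measured as binding.

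No interferon-stimulated gene of the module passed the test between kidney disease and wild-type hearts. With edgeR's quasi-likelihood test and Benjamini-Hochberg adjustment over all 20718 genes, 0 of 37 members had an adjusted p under 0.05, where 1.28% of all genes did (0.811% higher and 0.473% lower). At an unadjusted p under 0.05, 9 of the 37 were counted, all of them higher in kidney disease, against 12.4% of all genes in either direction and 6.84% higher. DESeq2 called 1 member, Ifitm3, where it called 3.74% of the genes it tested, and limma-voom called 0. The differences were small and mostly of the same sign: 34 of 37 members had a log2 difference above 0, against 51.2% of all genes. Their median log2 difference was 0.12, against 0.004 over all genes tested, and the range ran from -0.18 for Rsad2 to 0.63 for Zbp1. The members come from the same 15 hearts and are not separate observations. In none of the 37 did the 2 groups stand fully apart, as they did in 0.565% of all genes.

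That sign was not the same in all libraries. The most abundant gene of a library was mt-Co1, a mitochondrial gene, in 10 libraries and Ttn, the muscle giant titin, in 5 (kidney disease 4, 5 and 7, and wild type 6 and 7). Among the mt-Co1-led libraries, 4 kidney disease and 6 wild type, 36 of 37 members were above 0 with a median log2 difference of 0.23. Among the Ttn-led libraries, 3 kidney disease and 2 wild type, 13 of 37 were above 0 with a median of -0.058. One of those 2 wild-type hearts was wild type 7, where the median member lay 0.18 above its mean over all 15 hearts on the log2 scale. In the other, wild type 6, it lay at -0.024, below its place in kidney disease 4, 5 and 7 (0.11, 0.027 and 0.011). Among the 9 members with the smallest p, the log2 difference in the mt-Co1-led libraries was 0.57 for Irf7, 0.56 for Isg15, 0.35 for Irgm1, 0.39 for Oas2, 0.31 for Irf9, 0.64 for Oas1a, 0.32 for Ifi27, 0.60 for Zbp1 and 0.38 for Ifitm3. In the Ttn-led libraries it was 0.062 for Irf7, 0.014 for Isg15, 0.05 for Irgm1, 0.089 for Oas2, 0.14 for Irf9, 0.35 for Oas1a, 0.22 for Ifi27, 0.63 for Zbp1 and 0.35 for Ifitm3. All 9 were above 0 in both sets, but they were picked by their p over these same 15 hearts, where all 9 were higher. Their shared sign in the 2 sets is therefore no separate support. Irf7, Isg15, Irgm1 and Oas2 were near 0 in the Ttn-led libraries. The difference between the 2 sets was not tested, and the labels name no batch. The share of counts from mitochondrial genes lay between 10.5 and 12.8% in the kidney disease hearts and between 11.7 and 14.4% in the wild-type hearts, and its part in the values was not tested.

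**Figure D1:**
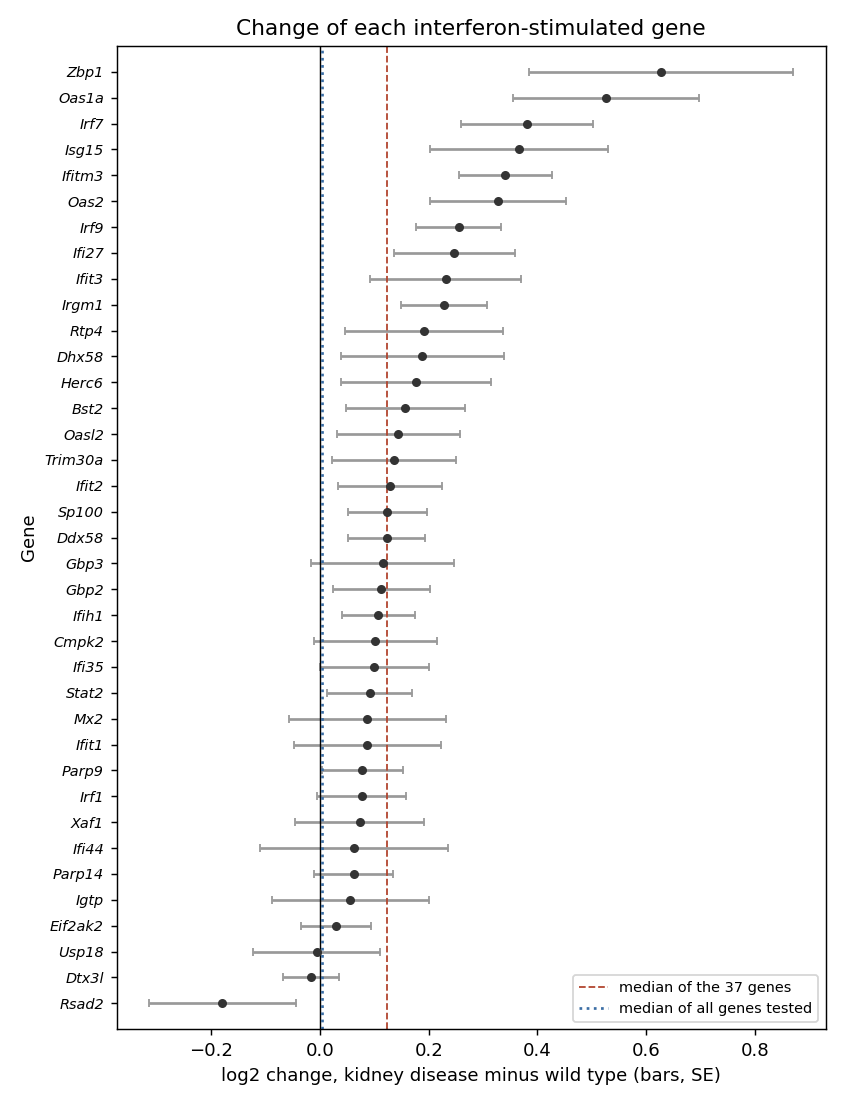
Log2 difference of each of the 37 interferon-stimulated genes, kidney disease minus wild type, as points with 1 standard error to each side, sorted by size, with a solid line at 0, a dashed line at the median of the 37 and a dotted line at the median of all genes tested. All but 3 points (Rsad2, Dtx3l and Usp18) lie above 0, and none passed the adjusted threshold of 0.05.

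The libraries held 48748379 to 65519279 counts on genes, and none of the 49 pairs of libraries within a group agreed within counting noise. Col4a5 checked the labels: its lowest, median and highest values were 9.19, 14.2 and 16.2 CPM in kidney disease, against 50.4, 56.6 and 65.7 CPM in wild type, a log2 difference of -2.08 (SE 0.12, edgeR adjusted p = 3e-09). All levels are given as CPM, the counts of a gene relative to the total of its library, scaled by edgeR's TMM factors. The summed markers of ventricular muscle lay between 101900 and 121800 CPM in the kidney disease hearts. In the wild-type hearts they lay between 119200 and 126900 CPM. Heart muscle was thus present in every library, but several of these markers are not limited to the ventricle. The summed markers of atrial muscle ran from 29.16 to 1378 CPM in kidney disease and from 34.43 to 1169 CPM in wild type. At these depths the members had between 19 counts in a library (Zbp1) and 4633 (Ifitm3), and 31 of the 37 had over 100 counts in every library.

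The factors that carry the interferon signal to DNA had small positive differences, none of which passed the test. All 4 members of this role had log2 differences above 0, with a median of 0.17. Irf9 (ENSMUSG00000002325, chr14:55603571-55610030, plus strand), the DNA-binding part of the complex with Stat2, had a lowest, median and highest value of 14.03, 16.6 and 18.6 CPM in kidney disease, against 11.1, 13.7 and 15.4 CPM in wild type. Its highest wild-type value was passed by 5 of the 7 kidney disease hearts. The means were 16.3 ± 1.65 CPM in kidney disease and 13.7 ± 1.475 CPM in wild type (SD, n = 7 and 8; log2 difference 0.26, SE 0.078, adjusted p = 0.125). Irf7 (ENSMUSG00000025498, chr7:141262706-141266481, minus strand), which switches on type I interferon genes and is itself induced by them, had 9.535, 10.5 and 16.4 CPM in kidney disease, against 7.24, 8.33 and 11.15 CPM in wild type. The groups overlapped, with 2 kidney disease hearts above the highest wild-type heart. Irf7 averaged 11.4 ± 2.515 CPM in kidney disease and 8.75 ± 1.43 CPM in wild type (SD; log2 difference 0.38, SE 0.12, adjusted p = 0.155). Irf1, an early transcription factor induced most strongly by interferon gamma, had 14.15, 15.6 and 18.95 CPM in kidney disease, against 11.3, 15.4 and 17.2 CPM in wild type (log2 difference 0.077, SE 0.082, adjusted p = 0.789). Its medians were close, and 20.02% of its exon bases are shared with another annotated gene, Gm17334. The sources used here do not give the strand setting of the counting, and reads over such shared bases are uncertain. The fourth member, Stat2, had a log2 difference of 0.091 (SE 0.078, adjusted p = 0.713).

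The sensors of foreign nucleic acid had a median log2 difference of 0.16, and 4 of 4 were above 0. Zbp1 (ENSMUSG00000027514, chr2:173206612-173218923, minus strand), which binds nucleic acids in the left-handed Z form and can set off inflammatory cell death, had the highest difference of the module and its lowest level per length. Its lowest, median and highest values were 0.905, 1.21 and 1.66 CPM in kidney disease, against 0.3785, 0.836 and 1.315 CPM in wild type. These rest on as few as 19 counts in a library, and 3 kidney disease hearts stood above every wild-type heart. The means were 1.295 ± 0.264 CPM in kidney disease and 0.836 ± 0.3485 CPM in wild type, a fold of 1.55 (log2 difference 0.63, SE 0.24, adjusted p = 0.262). Ddx58, the RNA sensor that recognises RNA ends with free phosphates, had 13.6, 16.7 and 16.9 CPM in kidney disease, against 12.7, 14.6 and 18.0 CPM in wild type. The highest heart of all was a wild-type one, and the groups overlapped (log2 difference 0.12, SE 0.071, adjusted p = 0.528). Ifih1, the sensor of long RNA duplexes, had a log2 difference of 0.11 (SE 0.067, adjusted p = 0.565), and Dhx58, which lacks their signalling domains and tunes both, had a log2 difference of 0.19 (SE 0.15, adjusted p = 0.69).

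Among the effectors that bind or degrade RNA, 7 of 7 were above 0 and the median log2 difference was 0.14. The Oas genes make oligoadenylates, a second messenger of antiviral defence. Oas1a (ENSMUSG00000052776, chr5:120896256-120907521, minus strand) had 1.615, 2.315 and 3.32 CPM in kidney disease, against 1.05, 1.58 and 2.27 CPM in wild type. In 4 kidney disease hearts it was above the highest wild-type heart. The means were 2.33 ± 0.553 CPM in kidney disease and 1.62 ± 0.374 CPM in wild type (SD, n = 7 and 8; log2 difference 0.53, SE 0.17, adjusted p = 0.161). Oas2, a larger synthetase of the same kind, had 5.21, 8.12 and 9.85 CPM in kidney disease, against 5.12, 5.93 and 7.89 CPM in wild type. The lowest hearts of both groups were nearly level, while the medians were apart. Oas2 averaged 7.804 ± 1.51 CPM in kidney disease and 6.22 ± 1.04 CPM in wild type (log2 difference 0.33, SE 0.13, adjusted p = 0.255). Ifit3, of the family that binds viral RNA with an unmethylated cap, had 4.798, 7.59 and 8.07 CPM in kidney disease, against 3.87, 5.84 and 8.503 CPM in wild type, and a wild-type heart was the highest of all (log2 difference 0.23, SE 0.14, adjusted p = 0.547). The related Ifit1 and Ifit2 had log2 differences of 0.087 (SE 0.14, adjusted p = 0.87), and of 0.13 (SE 0.096, adjusted p = 0.658). Oasl2 and Eif2ak2, the kinase that halts translation on viral RNA, had log2 differences of 0.14 (SE 0.11, adjusted p = 0.684), and of 0.029 (SE 0.065, adjusted p = 0.918). Oas genes and Ifit genes each stand in clusters of close relatives, and the sources used here do not say how reads shared among relatives were counted.

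The antiviral effectors at membranes and on nucleotides held both the smallest p-value and the most negative difference of the module. Ifitm3 (ENSMUSG00000025492, chr7:141009586-141010770, minus strand), which blocks the fusion of viruses inside endosomes, was the most abundant member per length, at 71.8 CPM per kb of exon over all 15 hearts, against 13.4 for Bst2, the next. Its lowest, median and highest values were 49.5, 52.03 and 75.1 CPM in kidney disease, against 39.3, 41.3 and 49.5 CPM in wild type. In kidney disease, 6 of the 7 hearts were above the highest wild-type heart, and kidney disease 6 stood far above the others. The means were 54.85 ± 9.04 CPM in kidney disease and 43.3 ± 4.43 CPM in wild type (SD, n = 7 and 8; log2 difference 0.34, SE 0.086, adjusted p = 0.0571). Without kidney disease 6 the log2 difference was 0.25 with an adjusted p of 0.0636. Over the 27 alternatives the adjusted p of Ifitm3 ran from 0.0134 to 0.344 and was under 0.05 in 6. Rsad2, which makes a nucleotide that ends viral RNA chains, had 9.505, 11.97 and 15.8 CPM in kidney disease, against 9.565, 12.9 and 19.75 CPM in wild type. The wild-type hearts spread more widely, and the highest was wild type 7. Rsad2 averaged 12.1 ± 2.07 CPM in kidney disease and 13.7 ± 3.31 CPM in wild type (log2 difference -0.18, SE 0.14, adjusted p = 0.661). Its log2 difference was 0.053 in the mt-Co1-led libraries and -0.66 in the Ttn-led ones. In the Ttn-led set, wild type 6 and 7 had 14.67 and 19.75 CPM. Kidney disease 4, 5 and 7 had 11.32, 9.505 and 11.97 CPM, and the reason was not tested. Cmpk2, a nucleotide kinase that lies beside Rsad2, had a log2 difference of 0.10 (SE 0.11, adjusted p = 0.805), and Bst2, which tethers budding viruses to the cell, had a log2 difference of 0.16 (SE 0.11, adjusted p = 0.629). Mx2, a dynamin-like GTPase, had a log2 difference of 0.087 (SE 0.15, adjusted p = 0.883).

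**Figure D2:**
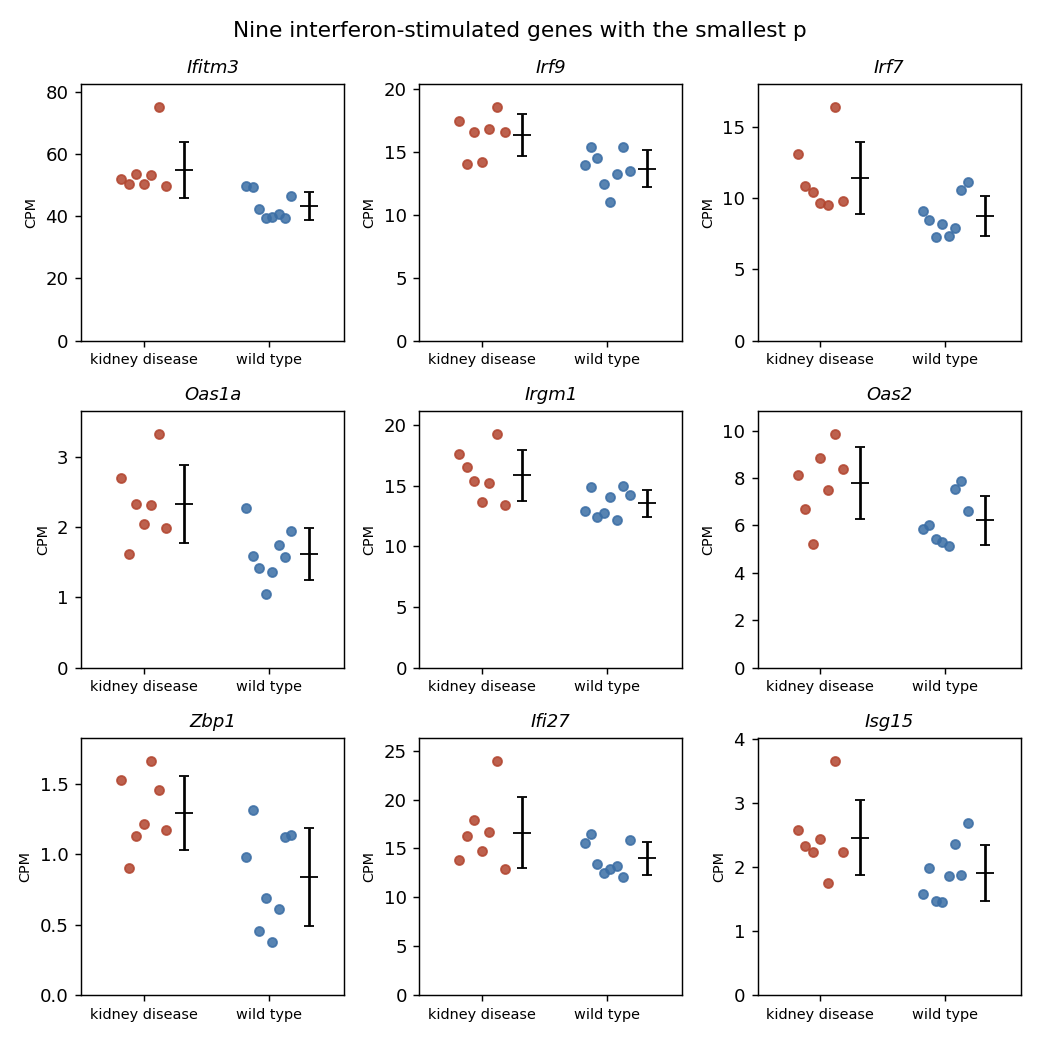
TMM-scaled CPM of 9 interferon-stimulated genes in every animal, kidney disease (7 points) left of wild type (8 points) in each panel, with the mean as a dash and 1 SD to each side as the bar, right of the points. The vertical axes start at 0 and differ between panels. In Ifitm3, 6 of 7 kidney disease points lie above all wild-type points, and the groups overlap in all 9 panels.

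The modifiers that use Isg15, ubiquitin or ADP-ribose were near 0 as a group: 5 of 7 were above 0 and the median log2 difference was 0.078. Isg15 itself (ENSMUSG00000035692, chr4:156199455-156200796, minus strand), a ubiquitin-like protein attached to newly made proteins, had 1.75, 2.32 and 3.65 CPM in kidney disease, against 1.45, 1.86 and 2.685 CPM in wild type. The highest value was that of kidney disease 6, and the ranges overlapped. The means were 2.46 ± 0.584 CPM in kidney disease and 1.904 ± 0.435 CPM in wild type (SD; log2 difference 0.37, SE 0.16, adjusted p = 0.362). Dtx3l, a ubiquitin ligase and the most abundant of this role per length, had 23.95, 25.2 and 26.8 CPM in kidney disease, against 22.8, 25.2 and 28.1 CPM in wild type. Its medians were level (log2 difference -0.017, SE 0.051, adjusted p = 0.943). Its partner Parp9 had a log2 difference of 0.078 (SE 0.075, adjusted p = 0.758), and the 2 genes share 8.0% of the exon bases of Dtx3l and 9.4% of those of Parp9. Usp18, which removes Isg15 and damps the receptor, had a log2 difference of -0.006 (SE 0.12, adjusted p = 0.993), and its sign changed under several alternatives. Herc6, which ligates Isg15 in mice, Parp14, which attaches single ADP-ribose units, and Trim30a, a ring-type ligase, had log2 differences of 0.18 (SE 0.14, adjusted p = 0.684), of 0.062 (SE 0.073, adjusted p = 0.816), and of 0.14 (SE 0.11, adjusted p = 0.706). Of the exon bases of Herc6, 13.7% are shared with Gm45193.

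The 4 members grouped as interferon-inducible GTPases, a class with effectors that attack the membranes around intracellular parasites, were all above 0. Their median log2 difference was 0.11. Irgm1 (ENSMUSG00000046879, chr11:48861968-48871683, minus strand), a regulator of the other immunity-related GTPases and of autophagy, had 13.4, 15.4 and 19.3 CPM in kidney disease, against 12.15, 13.5 and 14.95 CPM in wild type. In 5 kidney disease hearts it stood above the highest wild-type heart. The means were 15.9 ± 2.12 CPM in kidney disease and 13.55 ± 1.12 CPM in wild type (SD, n = 7 and 8; log2 difference 0.23, SE 0.079, adjusted p = 0.199). Igtp, the most abundant of these per length, had 8.28, 10.05 and 14.2 CPM in kidney disease, against 7.95, 9.155 and 15.7 CPM in wild type. The highest hearts of both groups, wild type 2 and kidney disease 1, were close, as were the medians (log2 difference 0.056, SE 0.14, adjusted p = 0.927). Gbp2 and Gbp3, guanylate-binding proteins, had log2 differences of 0.11 (SE 0.09, adjusted p = 0.69), and of 0.12 (SE 0.13, adjusted p = 0.811).

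The remaining 6 members were all above 0 with a median log2 difference of 0.11. Ifi27, a small membrane protein found at mitochondria, had 12.9, 16.2 and 23.9 CPM in kidney disease, against 12.1, 13.3 and 16.5 CPM in wild type. The highest kidney disease heart was far above the rest, and the lowest hearts of both groups were close. It averaged 16.6 ± 3.66 CPM in kidney disease and 13.99 ± 1.69 CPM in wild type (log2 difference 0.25, SE 0.11, adjusted p = 0.36). Sp100, a protein of nuclear bodies, had 24.4, 28.04 and 29.1 CPM in kidney disease, against 21.25, 24.03 and 30.1 CPM in wild type, with overlapping ranges (log2 difference 0.12, SE 0.073, adjusted p = 0.539). Ifi35 had a log2 difference of 0.10 (SE 0.10, adjusted p = 0.772), and 16.8% of its exon bases are shared with Gm11626. Without kidney disease 6 and wild type 7 together its sign turned to -0.016. Rtp4 had a log2 difference of 0.19 (SE 0.15, adjusted p = 0.668), and 13.9% of its exon bases are shared with Gm45338. Xaf1 had a log2 difference of 0.073 (SE 0.12, adjusted p = 0.88) and Ifi44 a log2 difference of 0.063 (SE 0.17, adjusted p = 0.934).

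The levels per length of the 37 members spread widely. After Ifitm3 and Bst2 came Ifi27 at 10.4, Ifi35 at 5.56 and Igtp at 5.02 CPM per kb, and at the low end stood Herc6 at 0.319 and Zbp1 at 0.298. Over the members the median SD between animals on the log2 scale came to 0.21 among kidney disease hearts and 0.23 among wild-type hearts. Over all genes tested it was 0.23 in each group. The median level was 9.98 CPM over the members and 5.24 CPM over all genes tested, and level was not accounted for.

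A few animals held most of the extremes of the module. Kidney disease 6 had the highest value of 17 of the 37 members, which is 45.9%, where it was the highest in 20.8% of all genes. The 17 were Irf7, Irf9, Dhx58, Oas1a, Oas2, Cmpk2, Bst2, Ifitm3, Isg15, Parp9, Trim30a, Gbp2, Gbp3, Irgm1, Ifi27, Ifi35 and Rtp4. Wild type 7 had the highest value of another 12 (32.4%, against 16.2% of all genes), namely Stat2, Ddx58, Ifit1, Ifit3, Oasl2, Mx2, Rsad2, Usp18, Herc6, Parp14, Xaf1 and Sp100. At the other end, wild type 4 was the lowest in 17 members (45.9%, against 6.12% of all genes) and wild type 5 in 8 (21.6%, against 6.25%). The 17 genes highest in kidney disease 6 had a median exon length of 3265 bases and the 12 highest in wild type 7 had one of 5308 bases, against 2662 and 3262 bases for all genes highest in these animals, and the part of length was not tested. As a distance from the mean of all 15 hearts, the median member was 0.36 above in kidney disease 6, 0.18 above in wild type 7, and 0.29 below in wild type 4, on the log2 scale. Wild type 4 had no member above that mean, while kidney disease 6 had 34 and wild type 7 had 30. Without kidney disease 6 and wild type 7 together, which is an alternative chosen after the data were seen, 34 of 37 members were above 0 with a median of 0.12.

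**Figure D3:**
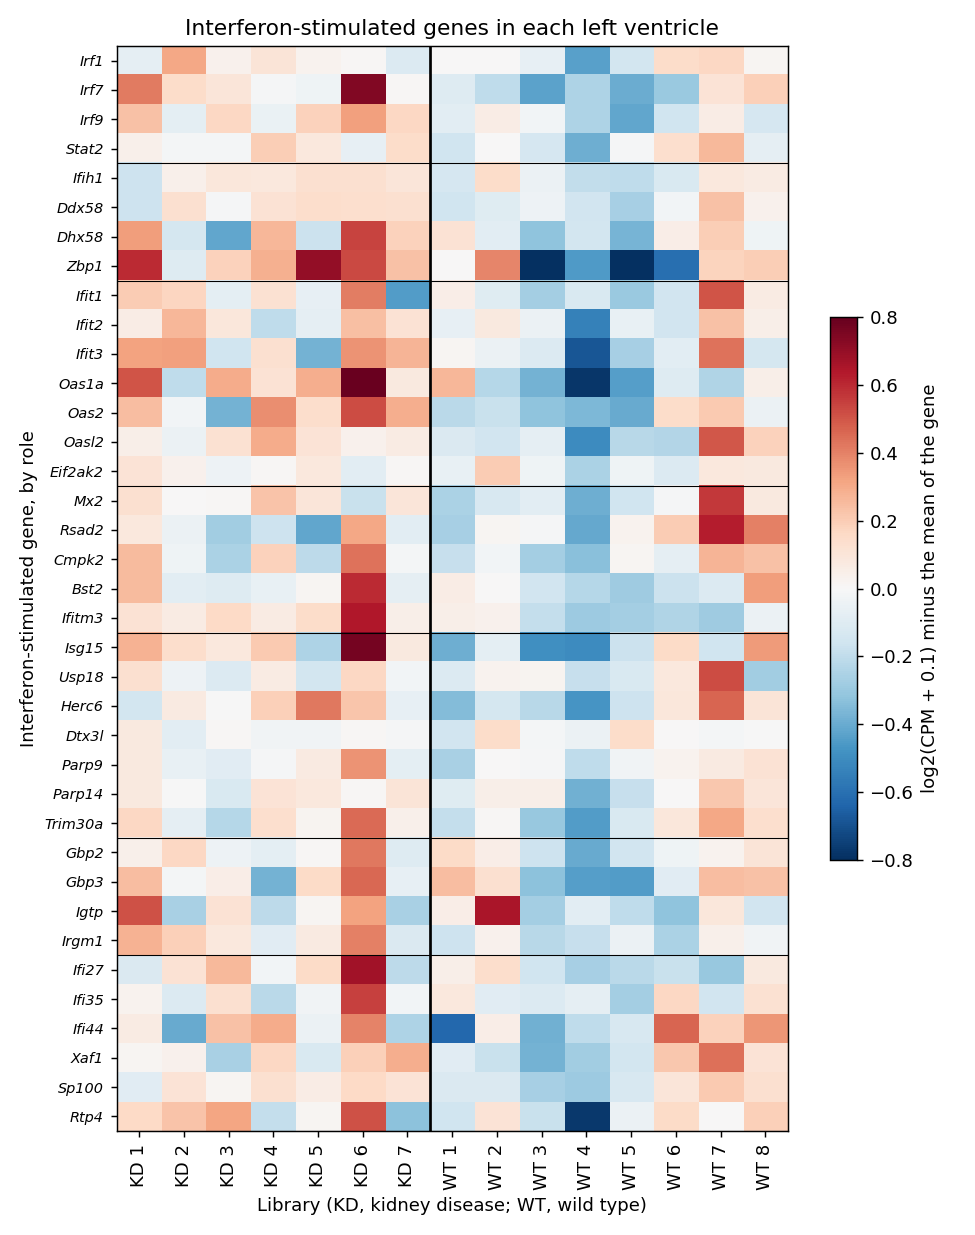
Heat map of the 37 interferon-stimulated genes (rows, by role) in 15 hearts (columns, kidney disease left of wild type), coloured by log2(CPM + 0.1) minus the row's mean, with the scale ending at 0.8 to each side. Kidney disease 6 is above the mean in 34 rows, wild type 7 in 30, and wild type 4 in 0.

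**Figure D4:**
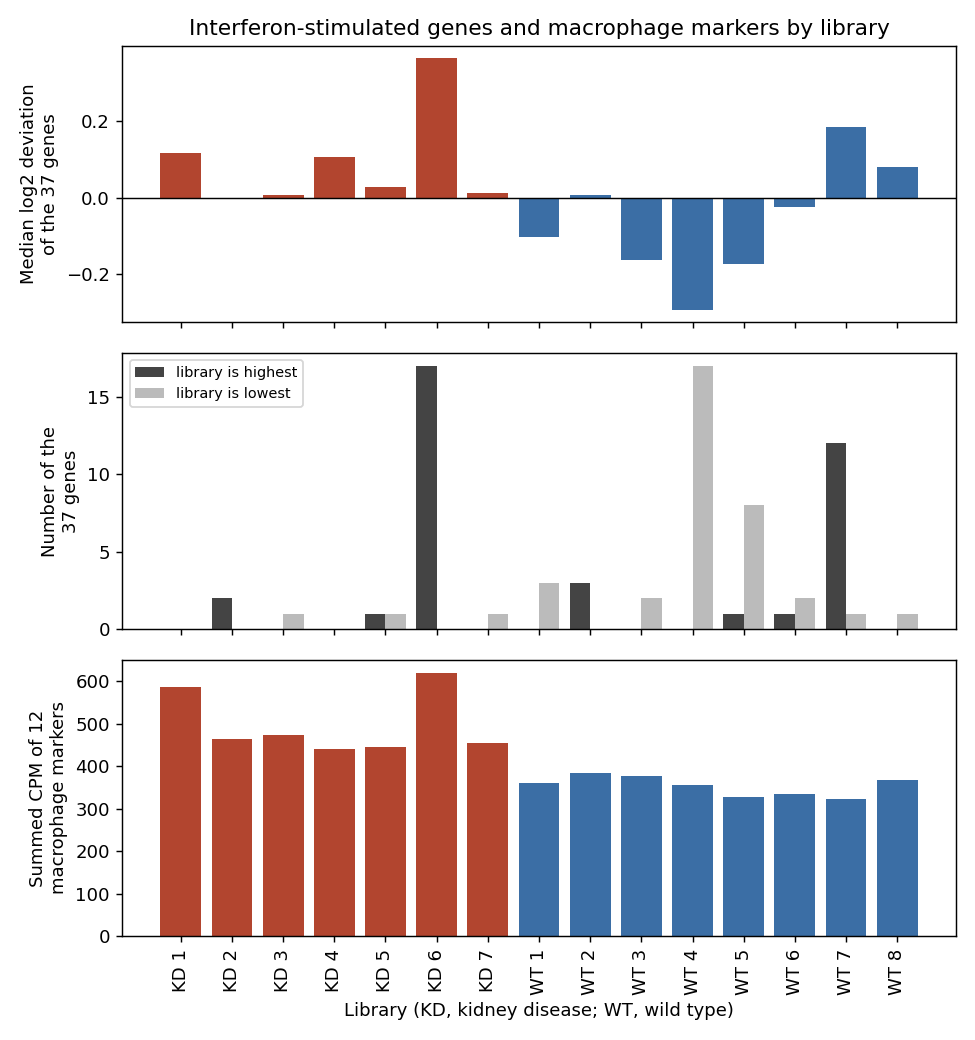
Bars by heart in stacked panels, kidney disease left of wild type: the median log2 deviation of the 37 members from their means, the number of members highest and lowest in that heart, and the summed CPM of 12 macrophage markers. Kidney disease 6 and wild type 7 held 17 and 12 of the highest values, and wild type 4 and wild type 5 held 17 and 8 of the lowest.

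Transcripts of the interferons themselves were at or near the limit of detection. Of 21 interferon ligand genes, 15 had no count in any library, Ifnb1 and Ifng among them, and the highest was 9 counts in a library, for Ifnk. None could be tested. A count of 0 in a library allows up to 3 counts, and such limits cover counting error only. The receptors were well measured. Ifnar1, a chain of the type I receptor, had 30.7, 31.4 and 36.02 CPM in kidney disease, against 26.8, 29.1 and 30.4 CPM in wild type. Its 7 kidney disease hearts were all above the 8 wild-type hearts, by a small amount that missed the adjusted threshold (log2 difference 0.18, SE 0.052, adjusted p = 0.108). Ifnar2, the other chain, had 19.5, 21.5 and 22.0 CPM in kidney disease, against 18.8, 19.55 and 21.6 CPM in wild type (log2 difference 0.092, SE 0.049, adjusted p = 0.469). Ifngr1, a chain of the interferon gamma receptor, had 36.4, 46.8 and 55.5 CPM in kidney disease, against 37.3, 41.3 and 44.7 CPM in wild type (log2 difference 0.17, SE 0.073, adjusted p = 0.343). Both genes overlapped between the groups. Of the 6 interferon and receptor genes tested, edgeR, DESeq2 and limma-voom called 0 in either direction. At an unadjusted p under 0.05, 2 were counted, against 12.4% of all genes, and 4 were above 0, against 51.2%.

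Of 14 genes of JAK-STAT signalling and its inhibitors, edgeR called 0 in either direction. Of the 14, 12 were above 0, against 51.2% of all genes, with a median log2 difference of 0.089. At an unadjusted p under 0.05, 5 were counted, all higher, against 6.84% of all genes, and limma-voom called 0. DESeq2 called 2 higher, Ptpn6 (adjusted p = 0.01) and Irf8 (adjusted p = 0.0104), against 2.21% of the genes it tested. Ptpn6 and Irf8 were each called in 5 of 27 alternatives. Ptpn6, a phosphatase of blood cells that damps the pathway, had 6.58, 7.16 and 9.27 CPM in kidney disease, against 4.69, 5.62 and 6.57 CPM in wild type. Its groups did not overlap (log2 difference 0.40, SE 0.10, adjusted p = 0.054). Irf8, a factor of macrophages and dendritic cells, had 7.904, 8.46 and 10.9 CPM in kidney disease, against 5.73, 6.88 and 8.26 CPM in wild type (log2 difference 0.34, SE 0.085, adjusted p = 0.053), with kidney disease 6 the highest. Socs3, a feedback inhibitor, had 6.31, 7.52 and 9.07 CPM in kidney disease, against 3.904, 5.92 and 8.035 CPM in wild type (log2 difference 0.32, SE 0.13, adjusted p = 0.281).

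In the list of nucleic acid sensing genes upstream of interferon, edgeR called 1 of 25 tested higher and 0 lower. It called 0.811% of all genes higher. Of the 25, 21 were above 0, against 51.2% of all genes, with a median log2 difference of 0.17. At an unadjusted p under 0.05, 11 were counted, all higher, against 6.84% of all genes. The called gene was Unc93b1, which carries the nucleic acid Toll-like receptors to endosomes. It had 25.5, 29.1 and 34.5 CPM in kidney disease, against 21.9, 25.1 and 27.2 CPM in wild type. In 6 of the 7 kidney disease hearts it was above every wild-type heart (log2 difference 0.27, SE 0.064, adjusted p = 0.0395). Its call was kept in 13 of 27 alternatives and in 4 of the 15 that left out 1 library. It was lost without kidney disease 1, 2, 3, 4, 6 or 7, or without wild type 1, 3, 4, 5 or 8. Its log2 difference was 0.39 in the mt-Co1-led libraries and 0.067 in the Ttn-led ones. Irf5, a transcription factor downstream of these receptors, had 4.897, 6.33 and 7.72 CPM in kidney disease, against 4.22, 4.696 and 6.18 CPM in wild type (log2 difference 0.39, SE 0.11, adjusted p = 0.0803).

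Among 83 other interferon-stimulated genes tested, edgeR called 3 higher and 0 lower, where it called 0.811% of all genes higher. Of the 83, 70 were above 0, against 51.2% of all genes, with a median log2 difference of 0.15. At an unadjusted p under 0.05, 22 were counted, all higher, against 6.84% of all genes. Lgals3bp, a secreted glycoprotein that binds galectins, had 37.7, 40.5 and 41.1 CPM in kidney disease, against 27.4, 33.3 and 37.4 CPM in wild type. Every kidney disease heart was above every wild-type heart (log2 difference 0.28, SE 0.057, adjusted p = 0.0207), and the call was lost among the 15 that left out 1 library only without wild type 5, and also within the mt-Co1-led (adjusted p = 0.0795) and the Ttn-led libraries (adjusted p = 0.592). Slfn2, a Schlafen protein of immune cells, had 6.03, 7.86 and 9.69 CPM in kidney disease, against 3.703, 5.26 and 6.93 CPM in wild type. In 5 kidney disease hearts it was above every wild-type heart (log2 difference 0.66, SE 0.13, adjusted p = 0.0212), and the call was lost among those 15 only without kidney disease 3. It was also lost within the mt-Co1-led libraries (log2 difference 0.69, adjusted p = 0.0955) and within the Ttn-led ones (log2 difference 0.71, adjusted p = 0.35). Ifi204, a nuclear DNA-binding protein, had 5.46, 6.23 and 8.36 CPM in kidney disease, against 3.501, 4.33 and 6.41 CPM in wild type, with wild type 7 the highest wild-type heart (log2 difference 0.55, SE 0.12, adjusted p = 0.034). Its call held in 5 of the 15, and was lost without kidney disease 1, 3, 5 or 6, or without wild type 1, 3, 4, 5, 6 or 8. Its log2 difference was 0.68 in the mt-Co1-led libraries and 0.29 in the Ttn-led ones. Cxcl10, a chemokine that draws T cells, was named from earlier results of these data and had 0.371, 0.408 and 0.602 CPM in kidney disease, against 0.0431, 0.2145 and 0.3305 CPM in wild type. Its groups did not overlap, on 2 to 36 counts a library (log2 difference 1.12, SE 0.31, adjusted p = 0.0793).

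Macrophage and B cell markers were higher in kidney disease beside these values. Over all genes tested, edgeR called 0.811% higher, DESeq2 2.21% and limma-voom 0.763%, and 51.2% were above 0. Of 12 macrophage markers, edgeR called 9 higher, and all 12 had a log2 difference above 0. Their summed level had a lowest, median and highest of 439.5, 463.2 and 619.3 CPM in kidney disease. In wild type it had 321.7, 357.6 and 384.9 CPM, without overlap. The highest sum was that of kidney disease 6, the heart with the highest value of 17 members, and the lowest was that of wild type 7, which held 12. Of 7 B cell markers, edgeR called 5 higher, and all 7 were above 0. Their sums were 17.55, 21.55 and 28.25 CPM in kidney disease, against 7.53, 11.7 and 15.8 CPM in wild type. Monocyte markers had 0 of 4 called by edgeR, 2 by DESeq2 and 1 by limma-voom, with sums of 13.31, 15.9 and 21.3 CPM in kidney disease, against 8.95, 12.04 and 13.25 CPM in wild type. Dendritic cell markers had 0 of 6 called, with sums of 29.6, 32.99 and 37.25 CPM in kidney disease, against 26.46, 29.75 and 35.06 CPM in wild type. Neutrophil markers had 0 of 5 called, with sums of 3.548, 7.936 and 13.97 CPM in kidney disease, against 2.13, 4.953 and 10.14 CPM in wild type. The sums of both lists overlapped between the groups. Markers of plasmacytoid dendritic cells, the main producers of type I interferon in blood, had 0 of 6 called. Their sums were 163.2, 176.4 and 182.5 CPM in kidney disease, against 155.9, 172.4 and 183.6 CPM in wild type. The list includes Tcf4 and the member Bst2, and its sum was not shown to come from these cells alone. T and NK cell markers had 0 of 6 called, with sums between 1.95 and 4.21 CPM in the kidney disease hearts and between 1.99 and 3.66 CPM in the wild-type hearts. In the dendritic, neutrophil, plasmacytoid, and T and NK lists DESeq2 and limma-voom also called 0. In these lists 2, 2, 2 and 0 markers had an unadjusted p under 0.05, against 12.4% of all genes. Fibroblast markers had 3 of 7 called higher by edgeR, and 6 were above 0. Erythroid markers had 0 of 6 called by edgeR and 0 of 6 above 0, and all 6 had an unadjusted p under 0.05. Their sums were 310.3, 545.8 and 822.3 CPM in kidney disease, against 558.9, 863.7 and 1076 CPM in wild type. Endothelial markers had 0 of 8 called by edgeR, 8 above 0 and 3 at an unadjusted p under 0.05. Kidney disease 6 also had the lowest ventricular muscle sum (101900 CPM) and the lowest erythroid sum (310.3 CPM) of all 15 hearts. It had the highest endothelial sum (1506 CPM) and the lowest sum of atrial muscle markers (29.16 CPM, where 34.43 CPM in wild type 5 was the next). No defining marker in these lists was at 0 in all libraries. The part of these cells in the values of the interferon-stimulated genes was not tested.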

How the data were processed

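Left ventricle RNA of 15 male mice, 7 with kidney disease and 8 wild type, was sequenced after ribosomal RNA depletion, and groups came from the sample labels. Per the submitters' processing notes, bcl2fastq, STAR 2.7.9a, Subread and featureCounts 2.0.3 were used on build GRCm38. Neither the counting options nor the strand setting is given in the sources used here. The deposited tables hold counts, CPM and FPKM for 55487 genes in each library. The authors' CPM and FPKM were recomputed from their counts and total counts with a relative tolerance of 1e-06, and 0 values differed. The tests used the deposited counts, of which each library held 48748379 to 65519279. PCR copies carry no molecular identifiers, so limits cover counting error only.

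The main test was edgeR 4.0.16 (R 4.3.3) with its quasi-likelihood fit, TMM scaling, the default filter on expression with a count minimum of 10, and Benjamini-Hochberg adjustment over all 20718 genes, with a threshold of 0.05. Alternatives were other scalings, DESeq2 1.42.0, limma-voom (limma 3.58.1), other filters, leaving out libraries, splits by the most abundant gene, that gene as a covariate, and a replicate block. The script was tested on simulated data. The SE of a log2 difference was derived from its F statistic. Values in both groups were given for the 12 members with the smallest p, the most abundant member per length of each role, the members with the extreme differences, and, in each further list, genes past the threshold and the 3 with the smallest p, and 2 genes that this rule names are not reported here. The members and lists were chosen with earlier results of these data known. Exon overlap was taken from the exon coordinates in the deposited tables. Of the gene identifiers, 55227 matched the GENCODE annotation.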

Additional observations from a re-analysis of the deposited data

Results flagged for a closer look

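In 12 of 98 groups of values examined, 1 animal stood apart from its own group by more than Dixon's 95% limit, where chance flags about 1 in 20 groups, or 4.9 here. Of the 12, 10 were members of the module, and the genes share animals, so the flags are not independent.

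Kidney disease 6 stood high among the kidney disease hearts in 5 genes. Its values were 75.06 CPM for Ifitm3 (next 53.64), 3.646 CPM for Isg15 (next 2.569), 18.03 CPM for Parp9 (next 14.81), 13.92 CPM for Ifi35 (next 10.4) and 10.9 CPM for Irf8 (next 8.695). Wild type 7 stood high among the wild-type hearts in 4 genes. Its values were 5.718 CPM for Ifit1 (next 4.193), 2.56 CPM for Mx2 (next 1.797), 4.522 CPM for Usp18 (next 3.315) and 6.41 CPM for Ifi204 (next 4.808). No cause was tested.

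Outside these 2 animals, Igtp was 15.69 CPM in wild type 2 (next 10.6). Rtp4 was 2.214 CPM in wild type 4, the lowest wild-type heart (next 3.384). Ifih1 was 12.11 CPM in kidney disease 1, the lowest kidney disease heart (next 13.98).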

How the results depend on the processing

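The share of tested genes called higher and lower was 0.811% and 0.473% (168 and 98 genes). It was 2.21% and 1.53% with DESeq2 (379 and 261), 1.62% and 0.907% with the most abundant gene as a covariate, 0.242% and 0.174% in the mt-Co1-led libraries (50 and 36), and 0.00447% and 0.00893% in the Ttn-led ones (1 and 2). Without a filter the shares higher and lower were 0.438% and 0.163% (174 and 65). With at least 1 CPM in 7 libraries they were 1.42% and 1.05% (208 and 154). Without kidney disease 6 and wild type 7 together they were 1.08% and 1.24% (223 and 257). With 1 library left out the higher share ran from 0.325% to 0.958% and the lower from 0.146% to 0.939%, lowest without wild type 5; the lower was highest without wild type 7.

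Of the members, 1 (Ifitm3) was called higher with upper-quartile scaling, DESeq2, no filter, at least 1 CPM, and the covariate. With 1 library left out 0 to 1 was called higher and 0 lower, and the members' median log2 difference ran from 0.087 to 0.169. That median was -0.058 in the Ttn-led libraries, and the cause was not tested. The sensing list had 3 genes called higher with DESeq2, 0 with limma-voom, 2 with the covariate and 0 in the Ttn-led libraries. It had 2 called higher without kidney disease 6 and wild type 7 together, and 0 to 2 with 1 library left out. The other interferon-stimulated genes had 7 called higher with DESeq2 and 7 with the covariate. They had 1 called higher in the mt-Co1-led libraries, 0 in the Ttn-led ones and 1 to 3 with 1 library left out.

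The same replicate numbers occur in both groups, and the labels give the numbers no meaning. The correlations of same-numbered deviations ran from -0.196 to 0.416. Of the 7 kidney disease hearts, 2 correlated best with the wild-type heart of their own number. Such correlations cannot show whether the numbers pair the animals. With the replicate block, 0.321% and 0.243% of genes were called higher and lower (66 and 50). There the sensing list had 0 called higher and the other interferon-stimulated genes 1, with Slfn2 at an adjusted p of 0.0769.

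Signs turned mostly in the Ttn-led libraries, which hold 5 hearts. There the log2 difference was -0.155 for Irf1, -0.060 for Stat2, -0.029 for Dhx58, -0.335 for Ifit1, -0.105 for Ifit2, -0.173 for Ifit3, -0.022 for Oasl2, -0.174 for Mx2, -0.121 for Cmpk2, -0.100 for Herc6, -0.058 for Parp9, -0.022 for Parp14, -0.142 for Trim30a, -0.060 for Gbp2, -0.175 for Gbp3, -0.053 for Igtp, -0.106 for Ifi35, -0.330 for Ifi44, -0.221 for Xaf1, -0.059 for Sp100 and -0.254 for Rtp4. Other values turned elsewhere: Usp18 to 0.006 with limma-voom, 0.003 without a filter, 0.150 in the mt-Co1-led libraries and 0.058 without kidney disease 6 and wild type 7 together; Rsad2 to 0.053 in the mt-Co1-led libraries; and Ifi35 to -0.016 without those 2 hearts. With 1 library left out, Eif2ak2 ran from -0.004 to 0.062, Usp18 from -0.041 to 0.087, Dtx3l from -0.039 to 0.004, Igtp from -0.035 to 0.18, and Ifi44 from -0.011 to 0.147.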
